A study of Mus musculus with 9 samples.

Results

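The genes described here encode enzymes and membrane proteins of the lysosome, in bone-marrow-derived macrophages (BMDMs) of mice. The set was a list of 44 gene symbols out of 24061 symbols in the count table. It was chosen by name, though with earlier results of these data known. It held 11 proteases, 10 glycosidases, 4 sulfatases, 5 lipid hydrolases and activators, 6 membrane proteins and channels, 5 subunits of the vacuolar proton pump (V-ATPase), 2 transcription factors and the granulin precursor Grn. All cells came from female C57BL/6J mice with no genetic change, 8 to 10 weeks of age, and were cultured for 7 days in L-cell conditioned medium and then serum-deprived for a day. The Veh group received DMSO alone. The LPS group received DMSO and then lipopolysaccharide (LPS), a bacterial agonist of the receptor TLR4, at 10 ng/mL for 2 hr. The T0+LPS group received 500 nM of T0901317 (T0), an agonist of the nuclear receptor LXR, for 3 hr before the same LPS stimulation. Each group had 3 RNA-seq libraries. By the study's methods each replicate was a macrophage culture differentiated on its own, so p-values measure the spread between such cultures. The sources used here do not say at which hour the Veh cells were collected.

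The lysosome is the acidic organelle in which macrophages digest what they engulf. The V-ATPase pumps protons into its lumen, hydrolases that work at low pH cut proteins, sugars, sulfated glycans and lipids, and membrane proteins protect the boundary or carry products out. Many of these genes are known targets of TFEB, TFE3 and related factors of the MiT/TFE family, which bind the palindrome CACGTG and its extended forms.

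Libraries held between 13299044 and 16467983 counted reads. The treatments were visible in genes outside the set. Cxcl1, a chemokine induced by LPS, had a mean level of 0.763 ± 0.297 CPM (SD, n = 3) with vehicle, against 906 ± 16.8 CPM (SD, n = 3) after LPS. Abcg1, a cholesterol transporter induced by LXR, had 381 ± 11.4 CPM (SD, n = 3) after LPS alone, against 1621 ± 46.4 CPM (SD, n = 3) with T0 before it. CPM here is the count per 1000000 reads of a library after TMM scaling, a factor that corrects for library composition. Of the 8 macrophage markers listed, 7 had a row and 6 were at 10 CPM or more in every library. Itgam had no read and only 3 bases on which reads could be counted. The 8 neutrophil markers, 7 of them with a row, summed to at most 3.93 CPM in any library. Among these markers Ly6g had no row, and S100a9 had 3 such bases and no read, so neither was measured.

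The table has a row for each RefSeq transcript, and reads were found only on rows with bases that no other row covers. This sets which members are measured well. Of the 44 members, 33 had 1 row and 11 had several, and the rows of a symbol were summed. For 32 members the single row was unshared over at least 80% of its bases, and these are called whole rows. Another 6 members, Ctsa, Ctss, Gaa, Galns, Glb1 and Psap, had fewer than 300 unshared bases. A change in such a member is a change in reads that reach those bases, and a shift between its transcripts cannot be told apart from a change of the whole gene. Ctss, which encodes cathepsin S, had 3 unshared bases and no read in any library, so its level was not measured here. The filter on low counts also left out Cd63, a tetraspanin of the lysosomal membrane, with 2 to 10 reads per library on 405 bases, and Tfe3, with 0 to 10 reads per library on 359 bases. The other 41 members were tested in both comparisons.

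Cathepsin D and cathepsin B were the most abundant members per length. Among the 32 whole-row members, the Veh level of Ctsd, an aspartic protease, was 7112 ± 47.6 CPM per kilobase (SD, n = 3). Ctsb, a cysteine protease, was at 4993 ± 27.2 CPM per kilobase (SD, n = 3). Next came Ctsz, a carboxypeptidase, at 1302 ± 28.4 CPM per kilobase (SD, n = 3) and then Lamp1, the major glycoprotein of the lysosomal membrane, at 1196 ± 6.74 CPM per kilobase (SD, n = 3). These 4 held the same places in all 3 groups, and their Veh libraries did not overlap with those of the next gene in order. Hexa, an N-acetylhexosaminidase subunit at 995 CPM per kilobase, and Grn, at 990 CPM per kilobase (989.7), followed with overlapping libraries. Ctsk and Ctns, Ctns and Manba, and Arsa and Smpd1 were other neighbours in the order whose Veh libraries overlapped. At the low end, Arsb, which removes sulfate from dermatan sulfate, was at 8.62 ± 0.485 CPM per kilobase (SD, n = 3). Ctsc was 23rd in Veh and 18th in both LPS-stimulated groups. Ctsb and Ctsd together took 3.81% to 3.87% of all counted reads in Veh and 2.98% to 3.25% in the other 6 libraries, and the 44 members together took 6.46% to 6.53% and 5.07% to 5.44%.

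**Figure D1:**
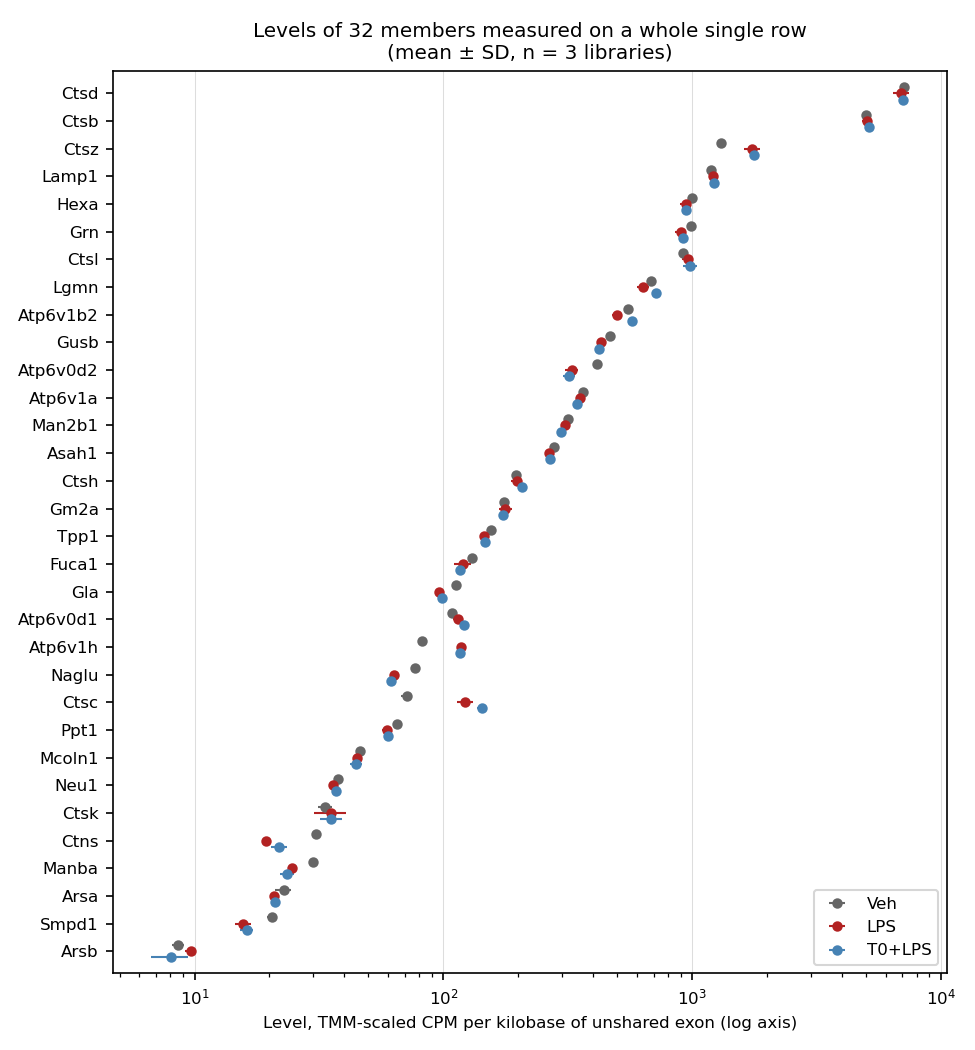
Level of the 32 whole-row members in CPM per kilobase of unshared exon on a log axis, with points for the mean and bars for the SD of 3 libraries in Veh (grey), LPS (red) and T0+LPS (blue). Ctsd and Ctsb stand at the top in all 3 groups, Arsb stands last, and Ctsc lies further to the right in both LPS-stimulated groups than in Veh.

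The letters TCACGTG, an extended form of the MiT/TFE palindrome, were common near the starts of these genes. RefSeq promoter windows of the GRCm38.p6 build, from 250 bases before to 50 bases after a gene's start, were at hand for 37 of the 44 members and not for Ctsb, Galns, Atp6v0d2, Asah1, Ctsh, Atp6v1b2 and Atp6v1h. TCACGTG, read on both strands, was in a window of 14 of the 37 members (37.8%), against 4.29% of the 27025 symbols with a window. The core CACGTG, which every TCACGTG contains, was in 15 of the 37 (40.5%), against 8.09% of all symbols. The symbols compared were not matched for promoter type. Many members are known targets of factors that bind this palindrome, so these shares are a description and no test. The stretches below are those of the 6 members that carry TCACGTG and were called in LPS against Veh, followed by 3 that carry it and were not called. They are written 5′ to 3′ along the gene's strand, and capitals mark each copy, with TCACGTGA where the letters match on both strands.
Sgsh, minus strand, chr11:119355516-119355556: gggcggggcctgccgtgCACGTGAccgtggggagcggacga
Ctsa, plus strand, chr2:164833743-164833772: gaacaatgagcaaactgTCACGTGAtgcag
Naglu, plus strand, chr11:101070003-101070043: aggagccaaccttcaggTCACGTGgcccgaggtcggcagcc
Gla, minus strand, chrX:134601176-134601250: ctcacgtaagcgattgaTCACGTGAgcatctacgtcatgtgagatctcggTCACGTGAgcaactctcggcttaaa
Lgmn, minus strand, chr12:102439119-102439159: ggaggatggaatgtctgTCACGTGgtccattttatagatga
Cln3, minus strand, chr7:126583334-126583402: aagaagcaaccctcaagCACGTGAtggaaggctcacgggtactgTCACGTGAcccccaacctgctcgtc
Lamp1, plus strand, chr8:13159082-13159160: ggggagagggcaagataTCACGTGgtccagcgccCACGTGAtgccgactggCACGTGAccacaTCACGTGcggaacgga
Mcoln1, plus strand, chr8:3500430-3500497: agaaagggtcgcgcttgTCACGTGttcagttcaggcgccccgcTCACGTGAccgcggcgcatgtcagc
Ctsd, minus strand, chr7:142387902-142387943: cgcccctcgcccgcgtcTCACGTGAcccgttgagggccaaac

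Lamp1 held the most copies, 4 within 62 bases of its start, and Cln3, Ctsa, Ctsd, Gla and Mcoln1 held 2 each, of which 1 is printed for Ctsd and for Ctsa. The start that sets the window was that of the deposited row in Sgsh, Ctsa, Naglu, Gla and Mcoln1. It lay 26 bases from the row's start in Lamp1 and 43 in Ctsd. In Lgmn it lay 605 bases downstream of the row's start, so the printed Lgmn stretch lies inside the span of its deposited row. The other Lgmn window, set 31 bases from the row's start, held no copy. In Cln3 the start that sets the window was that of the shorter of 2 rows, while most Cln3 reads lay on the longer row. The printed Cln3 stretch lies inside exon 2 of that longer row, at chr7:126583303-126583447. For the row with most reads, both copies are therefore exon sequence. Members with and without the motif had calls in both directions after LPS. Of the 14 members with TCACGTG, 1 was called higher and 5 lower, with a median log2 fold change of -0.11. Of the 20 tested members whose windows lacked it, 3 were called higher and 10 lower, with a median of -0.09. Among all genes tested, 32.9% were called higher and 31.2% lower. A match of letters is a description and does not show binding.

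LPS stimulation left most lysosomal genes close to their Veh level, with moderate falls more frequent than rises. Of the 41 members tested, 5 were called higher with LPS (12.2%), and of all 9559 genes tested 32.9% were. Those called lower were 17 (41.5%), where the share of all genes was 31.2%. The call was an adjusted p under 0.05 in edgeR's quasi-likelihood test, Benjamini-Hochberg adjusted over all genes. The median log2 fold change was -0.10 over the members and -0.00 over all genes. Scaling decides the sign of many members here, because the TMM factors of the Veh libraries (1.136 to 1.144) differed from those of the other libraries (0.931 to 0.948). By library totals alone the median of all genes moved to -0.28 and that of the members to -0.38, and the members called became 4 higher and 36 lower, against 17.7% and 56.6% of all genes. Changes below are on the TMM scale, that is, close to changes relative to the median gene. In RNA from whole cultures, fewer cells of a type and less RNA per cell cannot be told apart. The whole-row members had 4 higher and 13 lower of 32. Without 1 library at a time the members called were 4 to 6 higher and 13 to 17 lower. They were 13 lower (31.7%) without any 1 Veh replicate and without LPS replicate 1. Of the 9667 to 9770 genes tested in these fits, 2922 to 3165 were called higher and 2745 to 3044 lower.

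**Figure D2:**
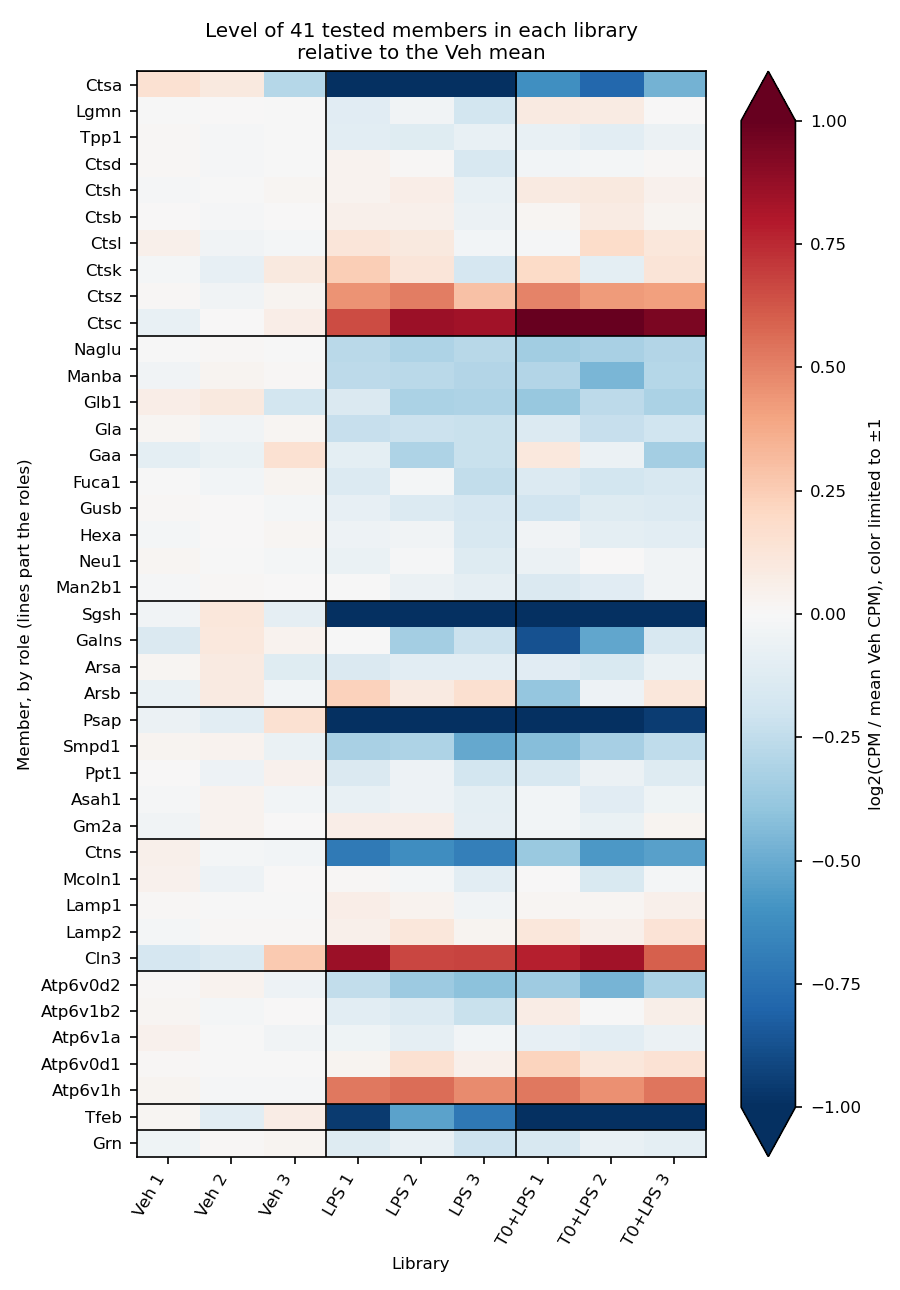
Level of each of the 41 tested members (vertical axis, grouped by role) in each of the 9 libraries (horizontal axis), as log2 of CPM over the mean Veh CPM, with color limited to a range of ±1. Ctsc, Ctsz, Cln3 and Atp6v1h are red and Sgsh, Ctsa, Psap, Ctns and Tfeb are blue in all LPS and T0+LPS libraries, while most other rows are pale.

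Among the proteases, 2 rose, 3 fell and 5 were not called of the 10 tested, beside 32.9% higher and 31.2% lower of all genes. Ctsc, or dipeptidyl peptidase 1, activates the serine proteases of granules and rose most. Its level was 167, 177 and 184 CPM in the Veh libraries, 276, 317 and 315 CPM in LPS and 351, 371 and 338 CPM in T0+LPS. The 3 groups did not overlap, with Veh lowest and T0+LPS highest. The log2 fold change of LPS against Veh was 0.79 (SE 0.0556, adjusted p = 2.91e-09, edgeR). Ctsz was at 1816, 1758 and 1833 CPM in Veh and at 2460.4, 2576 and 2214 CPM in LPS, so every LPS library lay above every Veh library. Its log2 fold change was 0.43 (SE 0.0498, adjusted p = 1.46e-06, edgeR). The T0+LPS libraries of Ctsz, at 2544, 2415 and 2394 CPM, fell within the range of LPS.

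Both most abundant cathepsins were not called. Ctsd was at 13999, 13816 and 13875 CPM in Veh, 14213, 13994 and 12458 CPM in LPS and 13664, 13736 and 14013 CPM in T0+LPS, and all 3 groups overlapped. Its log2 fold change in LPS was -0.03 (SE 0.0472, adjusted p = 0.555, edgeR). For Ctsb the Veh libraries were at 19838, 19699 and 19912 CPM, those of LPS at 20529, 20480.2 and 19020.0 CPM and those of T0+LPS at 20103, 20928 and 20192 CPM. LPS against Veh gave 0.02 (SE 0.0405, adjusted p = 0.735, edgeR), with one LPS library below all Veh libraries and the other two above. By library totals Ctsb moved to -0.27, close to the median of all genes. Ctsk, the collagen-cutting cathepsin known from osteoclasts, was at 52.4, 50.2 and 56.9 CPM in Veh and 63.2, 57.9 and 47.2 CPM in LPS. Its LPS libraries lay on both sides of Veh, and the log2 fold change was 0.08 (SE 0.0828, adjusted p = 0.416, edgeR). Ctsk was called higher without LPS replicate 3, at 0.18 (adjusted p = 0.0203, edgeR). By library totals it was called lower, at -0.20 (adjusted p = 0.0356, edgeR). T0+LPS libraries of Ctsk were at 60.7, 49.7 and 58.2 CPM. The osteoclast marker list summed to 37.0 to 39.9 CPM in Veh and 116 to 145 CPM in LPS, nearly all of it from Mmp9. The other 5 markers of that list stayed under 1 CPM in every library, 1 of them, Calcr, at 0 reads on 426 bases and 1, Oscar, at 0 reads on 18 bases. Dcstamp was measured on only 58 unshared bases and Acp5 on 339.

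Ctsa, the carboxypeptidase that also protects β-galactosidase and neuraminidase, had the most negative value of the set but was measured on little sequence. Its level was 4.38, 4.23 and 3.24 CPM in Veh, 1.27, 1.02 and 1.47 CPM in LPS and 2.59, 2.30 and 2.84 CPM in T0+LPS. The 3 groups did not overlap, with T0+LPS between the other two. Its log2 fold change in LPS was -1.66 (SE 0.224, adjusted p = 7.36e-06, edgeR). All reads lay on the 78 unshared bases that are exon 1 of 1 of its 2 rows, at chr2:164833773-164833850 of mm10, directly after the printed promoter stretch. Ctsa exons also overlap those of Neurl2 and Pltp on the other strand, and reads were counted without strand. Mean Neurl2 levels were 18.5 ± 1.09 CPM for Veh, 7.70 ± 0.498 CPM for LPS and 13.5 ± 1.37 CPM for T0+LPS (each ± SD, n = 3). Its part in the Ctsa value was not tested. Small falls were called for Lgmn, or legumain, with a log2 fold change of -0.10, and for Tpp1, a tripeptidyl peptidase, with -0.10. Ctsh and Ctsl were not called.

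The glycosidases, which take sugars off glycoproteins and glycolipids, had small log2 fold changes that were all negative. Of the 10 members 5 were called lower and none higher by edgeR, beside 31.2% lower and 32.9% higher of all genes. None had a positive log2 fold change with TMM. Library totals lowered the median of all genes to -0.28, so the negative values under that scaling add nothing to this. At an unadjusted p under 0.05 the numbers were also 5 and 0. The share of all genes at an unadjusted p was not counted in either comparison. Naglu, which cuts N-acetylglucosamine from heparan sulfate, had the lowest value. It was at 190 (190.4), 193 and 191 CPM in Veh and at 159, 154 and 158 CPM in LPS, with a log2 fold change of -0.28 (SE 0.0412, adjusted p = 1.68e-05, edgeR). Every LPS library lay below every Veh library. Manba fell by 0.27, Gla, the α-galactosidase, fell by 0.22, Fuca1 fell by 0.13 and Gusb, the β-glucuronidase, fell by 0.12 on the log2 scale. Hexa, Neu1, Man2b1, Gaa and Glb1 were not called, the last 2 being measured on 172 and 261 bases.

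Sgsh, the sulfatase of heparan sulfate, fell to 0.412 of its Veh level. Its libraries were at 69.0, 76.3 and 66.4 CPM in Veh, 30.0, 29.0 and 28.1 CPM in LPS and 28.7, 31.8 and 32.4 CPM in T0+LPS. The Veh libraries stood far above all 6 others, which overlapped among themselves. The log2 fold change in LPS was -1.28 (SE 0.0642, adjusted p = 3.3e-11, edgeR), the smallest p among the members. Sgsh had 1 row with 3369 unshared bases, and 955 more were shared with Card14. The printed Sgsh promoter stretch ends close to the row's start and holds 1 copy of the motif.

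Arsb was called higher, but barely. Its Veh libraries at 32.9, 36.6 and 33.7 CPM overlapped with those of LPS at 40.4, 36.5 and 38.4 CPM. Its log2 fold change was 0.17 (SE 0.0656, adjusted p = 0.0373, edgeR), and by library totals the sign turned to -0.12. T0+LPS libraries of Arsb were spread from 26.3 to 37.1 CPM. Arsa and Galns, the other sulfatases, were not called.

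Among the lipid hydrolases and activators, 3 of 5 were called lower and none higher by edgeR, beside 31.2% and 32.9% of all genes. The numbers of these members at an unadjusted p under 0.05 were the same. Smpd1, the acid sphingomyelinase, was the clearest on a whole row. It was at 50.1, 50.6 and 47.1 CPM in Veh and at 39.3, 39.7 and 34.6 CPM in LPS without overlap, and its log2 fold change was -0.38 (SE 0.0639, adjusted p = 8.03e-05, edgeR). Ppt1, a thioesterase that removes palmitate, fell by 0.12 on the log2 scale. Asah1, the acid ceramidase, and Gm2a, the GM2 activator, were not called.

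Psap, the precursor of the saposins, had a log2 fold change of -1.50 (SE 0.155, adjusted p = 3.48e-07, edgeR). It was at 7.48, 7.21 and 8.63 CPM in Veh, 2.38, 3.06 and 2.78 CPM in LPS and 3.50, 3.20 and 4.02 CPM in T0+LPS, with no overlap between the groups. These reads came from 78 unshared bases over 6 rows. Most lay on a row with 15 exons whose only unshared sequence is exon 8, of 5 bases, at chr10:60296305-60296309 of mm10. The values rest on reads that reach this small exon, and the level of Psap as a whole was not measured here.

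Of the membrane proteins and channels, 1 of 5 rose and 1 fell, beside 32.9% higher and 31.2% lower of all genes. Cln3, a lysosomal membrane protein mutated in juvenile Batten disease, was at 11.8, 12.0 and 15.9 CPM in Veh, 24.0, 21.0 and 21.2 CPM in LPS and 22.7, 23.7 and 20.0 CPM in T0+LPS. Veh lay below all other libraries, and the log2 fold change in LPS was 0.74 (SE 0.109, adjusted p = 2.07e-05, edgeR). Its reads came from 392 unshared bases at the 5′ ends of 2 rows, mainly the first 2 exons of the longer. Ctns, the cystine exporter, moved the other way on a whole row. It was at 96.0, 91.4 and 90.9 CPM in Veh, 56.9, 60.3 and 57.9 CPM in LPS and 71.5, 62.3 and 63.6 CPM in T0+LPS. Every LPS library lay far below every Veh library, and the log2 fold change was -0.67 (SE 0.0497, adjusted p = 6.02e-09, edgeR).

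Lamp1, Lamp2 and Mcoln1 were not called. Lamp1 was at 2715, 2693 and 2686 CPM in Veh, 2829, 2769 and 2628 CPM in LPS and 2733, 2733 and 2789.8 CPM in T0+LPS. Its groups overlapped, and LPS against Veh gave 0.03 (SE 0.0396, adjusted p = 0.581, edgeR), or -0.26 by library totals. Lamp2 had 0.07 (adjusted p = 0.164, edgeR) over its 3 rows, with LPS libraries at 452, 472 and 446 CPM just above those of Veh at 431, 440.5 and 440.5 CPM. Tested row by row, 1 of its rows was called higher at 0.11 (adjusted p = 0.03002, edgeR) and the other two were not, at 0.06 and -0.03. Mcoln1, the calcium channel of the lysosome, was at 95.8, 89.7 and 92.8 CPM in Veh, 93.7, 91.3 and 86.1 CPM in LPS and 92.9, 83.3 and 91.6 CPM in T0+LPS. All 3 groups overlapped, with a log2 fold change in LPS of -0.04 (SE 0.0499, adjusted p = 0.541, edgeR).

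The V-ATPase subunits moved in different directions. Atp6v1h, a regulatory subunit of the cytosolic V1 sector, was at 166 (165.5), 161 and 161 CPM in Veh and 235 (234.5), 239 and 225 CPM in LPS. Every LPS library was above every Veh library, and the log2 fold change was 0.52 (SE 0.0428, adjusted p = 1.96e-08, edgeR). Atp6v0d2, a V0 subunit known from osteoclasts and macrophages, was at 1051, 1069.5 and 1004 CPM in Veh, 879, 809.8 and 782 CPM in LPS and 814, 755 and 837 CPM in T0+LPS. Veh stood above all other libraries, and LPS against Veh gave -0.34 (SE 0.0468, adjusted p = 1.03e-05, edgeR). Atp6v1b2, a nucleotide-binding subunit of V1, was called slightly lower at -0.15, and Atp6v1a and Atp6v0d1 were not called. Of 13 further V-ATPase genes, 11 were tested, of which 5 were called higher and none lower by edgeR, with 0 lower also at an unadjusted p under 0.05. Their median was 0.10, but by library totals 1 was higher, 6 were lower and the median was -0.19. The shares of all genes given above, 32.9% higher and 31.2% lower with TMM and 17.7% and 56.6% by totals, apply here too. Atp6v1e1, with means of 274 ± 9.60 CPM for Veh and 467 ± 25.4 CPM for LPS (each ± SD, n = 3), was called higher under both scalings.

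Tfeb, the transcription factor best known for driving lysosomal genes, was itself lower in LPS, at a low level. It was at 6.42, 5.88 and 6.66 CPM in Veh, 3.25, 4.37 and 3.86 CPM in LPS and 3.12, 2.58 and 3.12 CPM in T0+LPS, with no overlap between the groups. The log2 fold change in LPS was -0.72 (SE 0.15, adjusted p = 0.000541, edgeR). Nearly all reads lay on the first exon of 1 of its 3 rows, at chr17:47737037-47737316 of mm10. The other rows had 274 and 221 unshared bases in their own first exons, and each held 0 to 2 reads per library. A start outside these 3 rows could change without being seen here. Tfe3 had 4, 0 and 0 reads in Veh, 4, 5 and 8 in LPS and 5, 10 and 7 in T0+LPS, too few for the filter. Grn, which encodes progranulin, a precursor carried to the lysosome, fell by 0.13 on the log2 scale.

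The weakest calls with LPS were lost under several settings. With every library kept, Lgmn, Tpp1, Fuca1, Ppt1 and Arsb were not called with the replicate number as a block, Tpp1, Fuca1, Ppt1 and Arsb were not called by DESeq2, and Arsb was not called higher without a filter on low counts, in 1 fit to all 9 libraries or by library totals. DESeq2 called 4 members higher and 14 lower of 43 tested, beside 2913 and 2513 of 11902 genes. Among the 6 fits that each left out a library, Lgmn and Fuca1 were called lower without LPS replicate 2 and in none of the other 5, and Tpp1 without LPS replicate 3 and in none of the other 5. Ppt1 lost its call without Veh replicate 1, Veh replicate 3 or LPS replicate 1, and Grn without Veh replicate 2 or Veh replicate 3. Arsb lost it without Veh replicate 1, Veh replicate 3, LPS replicate 1 or LPS replicate 3. For these 6 members the highest adjusted p in such a fit lay between 0.0596 and 0.155 by edgeR. Calls were also gained when a library was left out. Ctsk and Ctsl were called higher without LPS replicate 3, Hexa lower without LPS replicate 2 and Arsa lower without Veh replicate 3. Hexa and Arsa were also called lower without a filter on low counts.

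Other members of the same factor family as Tfeb rose. Tfec, from the list of 50 further lysosomal genes and regulators, was at 10.6, 8.86 and 10.9 CPM in Veh, 182, 163 and 179 CPM in LPS and 148, 172 and 156 CPM in T0+LPS. Veh and LPS stood far apart, and its log2 fold change was 4.11 (SE 0.0736, adjusted p = 4.17e-17, edgeR) on a row of 1779 unshared bases. Mitf had means of 7.57 ± 0.317 CPM for Veh and 11.8 ± 0.509 CPM for LPS (each ± SD, n = 3), with a log2 fold change of 0.64 on 518 unshared bases. Both were called higher under both scalings.

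**Figure D3:**
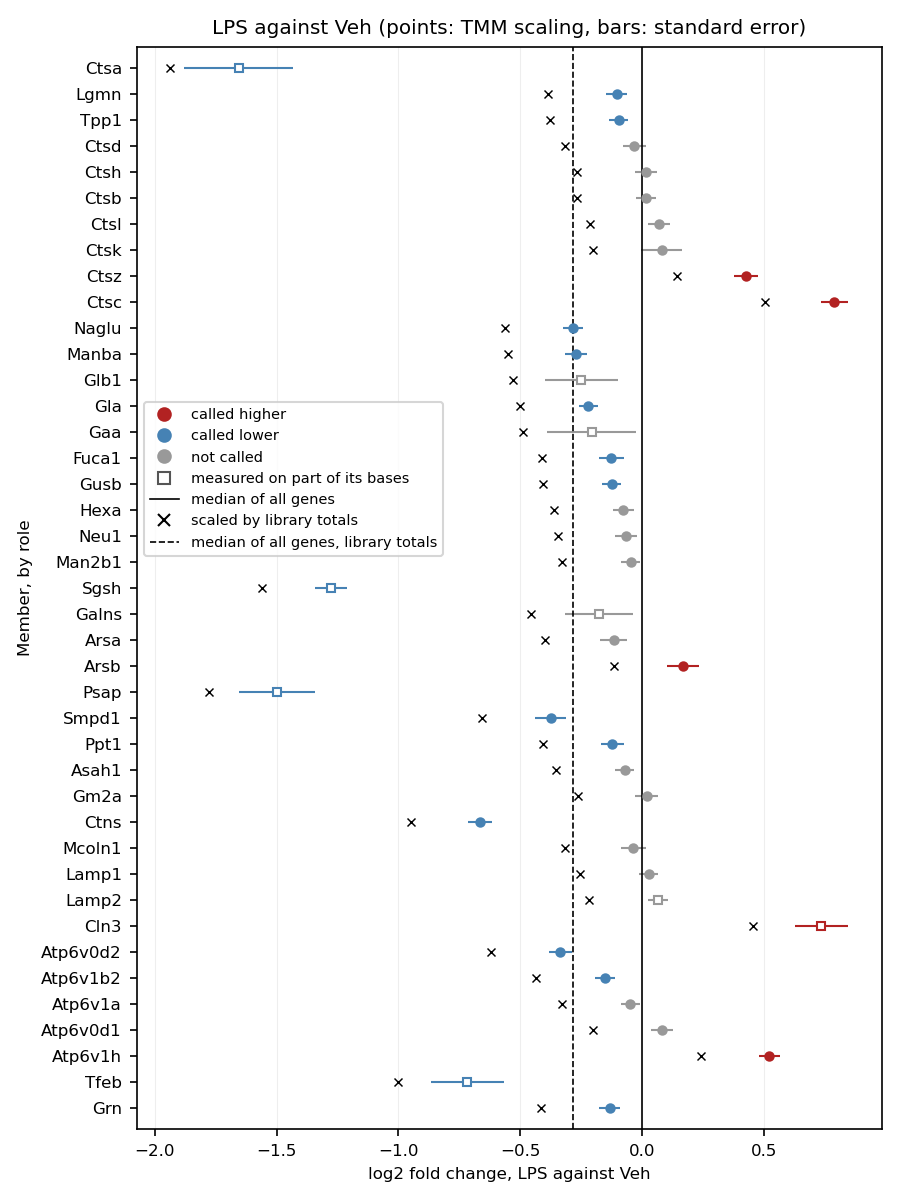
Log2 fold change of LPS against Veh for the 41 tested members, ordered by role, with bars for the standard error and color for the call. Filled circles are whole-row members, open squares are members measured on part of their bases, crosses are the same values scaled by library totals, and the 2 vertical lines mark the median of all genes at -0.00 (TMM) and -0.28 (totals). Most points lie between -0.4 and 0.1, and each cross lies to the left of its point by about the distance between the lines.

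The comparison of T0+LPS with LPS asks what the LXR agonist changed under LPS. It shares the 3 LPS libraries with the comparison above, so a library that stands low in LPS moves both. LPS replicate 3 was the lowest of its group in 25 of the 41 members and the highest in 3, with a median difference of -0.05 on the log2 scale from its group's mean. This order was counted over the members only and not over all genes. Few members were called. By edgeR 2 of 41 were higher (4.88%), against 1.35% of 9348 genes tested, and none was lower, against 1.83%. At an unadjusted p under 0.05 the members were 5 higher and 1 lower, and the share of all genes at that p was not counted. DESeq2 called Atp6v1b2, Ctsc and Lgmn higher and gave Ctsa no adjusted p, limma-voom called Atp6v1b2, Ctsa and Ctsc higher, and neither called a member lower. The median log2 fold change was 0.01 over the members and 0.00 over all genes.

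Atp6v1b2 was 1 of the 2 called members and lies on a whole row. Its libraries were at 1539.6, 1496 and 1519 CPM in Veh, 1410.3, 1379.5 and 1301 CPM in LPS and 1601, 1516 and 1583.5 CPM in T0+LPS. T0+LPS lay above LPS without overlap and reached the Veh range. The log2 fold change against LPS was 0.20 (SE 0.0445, adjusted p = 0.0204, edgeR), or 1.15-fold, and it was called in 3 of 6 fits that left out a library. The call was lost when LPS replicate 1 was left out, and likewise for replicates 1 and 3 of T0+LPS, with an adjusted p of up to 0.0853, and kept under all 8 other settings, with an adjusted p from 0.000569 to 0.0219. Of the other V-ATPase subunits in the set none was called. Atp6v1h, at 234, 223 and 236 CPM in T0+LPS, gave -0.01, and Atp6v0d2 gave -0.04.

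Ctsa was the other called member, on its 78 bases. Its log2 fold change was 1.04 (SE 0.244, adjusted p = 0.0288, edgeR), with means of 1.25 ± 0.224 CPM for LPS and 2.58 ± 0.272 CPM for T0+LPS (each ± SD, n = 3). The reads behind it were 16, 14 and 19 in LPS and 34, 33 and 41 in T0+LPS. Without LPS replicate 1 the adjusted p was 0.122, and the call was kept in 1 of 6 such fits, without LPS replicate 3. Both overlapping genes were called higher too. Neurl2 had a log2 fold change of 0.80 (adjusted p = 0.00112, edgeR) and Pltp, an LXR target that transfers phospholipids, had 0.26 (adjusted p = 0.0126, edgeR). Their part in the Ctsa value was not tested.

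Ctsc was the member next in order of p. The T0+LPS libraries given above lay above those of LPS without overlap, and the log2 fold change was 0.22 (SE 0.0581, adjusted p = 0.0503, edgeR). It was called under 7 of 8 other settings, where the adjusted p ranged from 0.000642 to 0.0637, the exception being library totals. Of the 6 fits that left out a library it was called in 2, without LPS replicate 2 or 3, and without LPS replicate 1 the log2 fold change was 0.16 with an adjusted p of 0.322. Lgmn was at 1190.4, 1256 and 1130.3 CPM in LPS and 1369, 1363 and 1288 CPM in T0+LPS, also without overlap, with 0.17 (SE 0.048, adjusted p = 0.0765, edgeR). Ctns gave 0.17 and Psap 0.38 with groups that did not overlap, and neither was called, at adjusted p of 0.211 and 0.407 by edgeR. Tfeb gave -0.39 (SE 0.19, adjusted p = 0.393, edgeR), with T0+LPS below LPS in every library.

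Arsb gave -0.25 (SE 0.098, adjusted p = 0.237, edgeR), with groups that overlapped. It was the 1 member lower at an unadjusted p under 0.05, and it was called lower without a filter on low counts, at an adjusted p of 0.0448. Ctsd, Ctsb, Ctsz, Lamp1, Mcoln1, Cln3 and Ctsk had log2 fold changes between -0.02 and 0.03, with SEs of 0.0415 to 0.0571 for the first 5 and of 0.0902 and 0.0937 for Cln3 and Ctsk, so differences of that size would not have been detected. The 10 glycosidases lay between -0.07 and 0.12 with none called by edgeR at either an adjusted or an unadjusted p under 0.05. Of the 44 tested genes of the further lysosomal list none was called by edgeR, with 5 higher and 4 lower at an unadjusted p under 0.05. Of the 11 further V-ATPase genes none was called by edgeR, with 0 higher and 1 lower at an unadjusted p under 0.05. Of all genes 1.35% were called higher and 1.83% lower, so the absence of calls in lists this short is near that share.

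**Figure D4:**
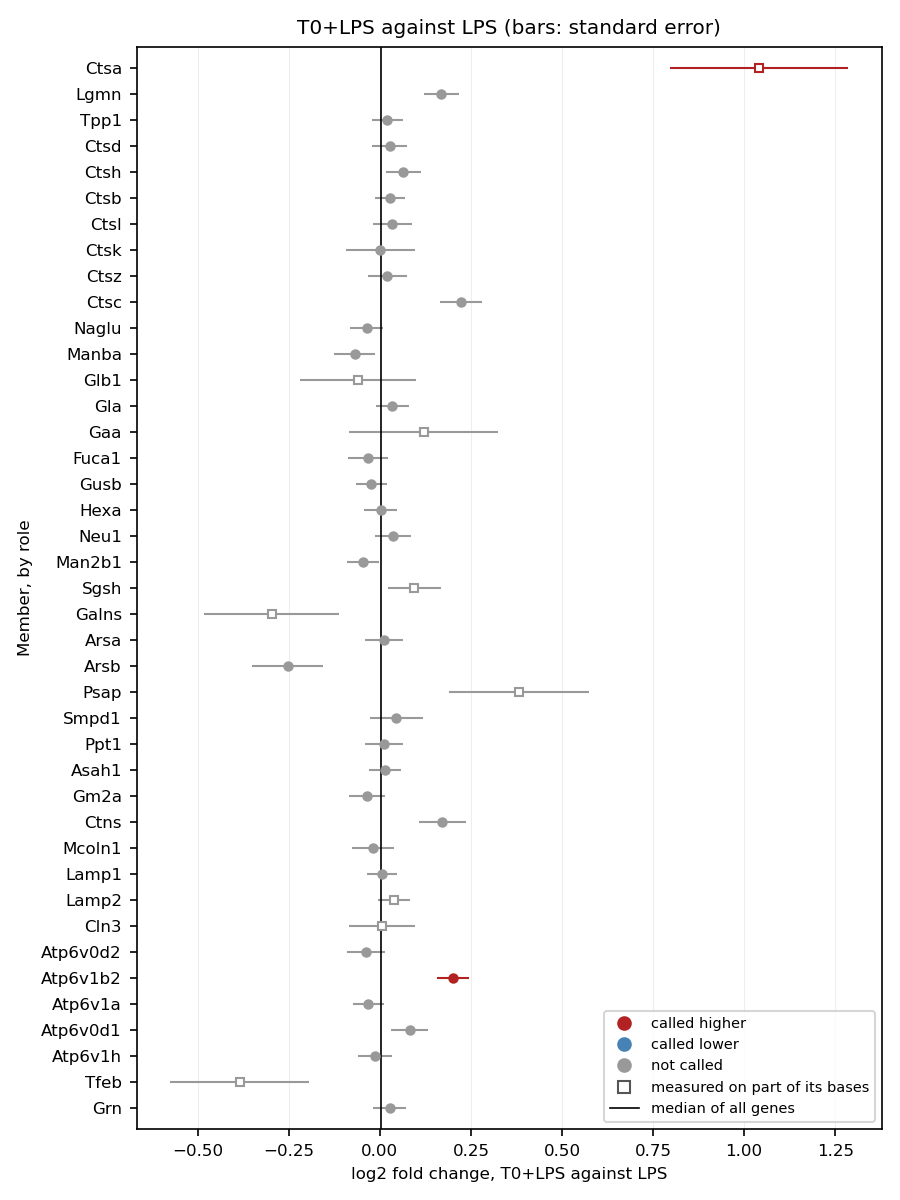
T0+LPS against LPS, as a log2 fold change, for the 41 tested members, ordered by role, with bars for the standard error, color for the call and open squares for members measured on part of their bases. Only Ctsa at 1.04 and Atp6v1b2 at 0.20 are colored as called, and most points lie within 0.1 of the median of all genes.

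**Figure D5:**
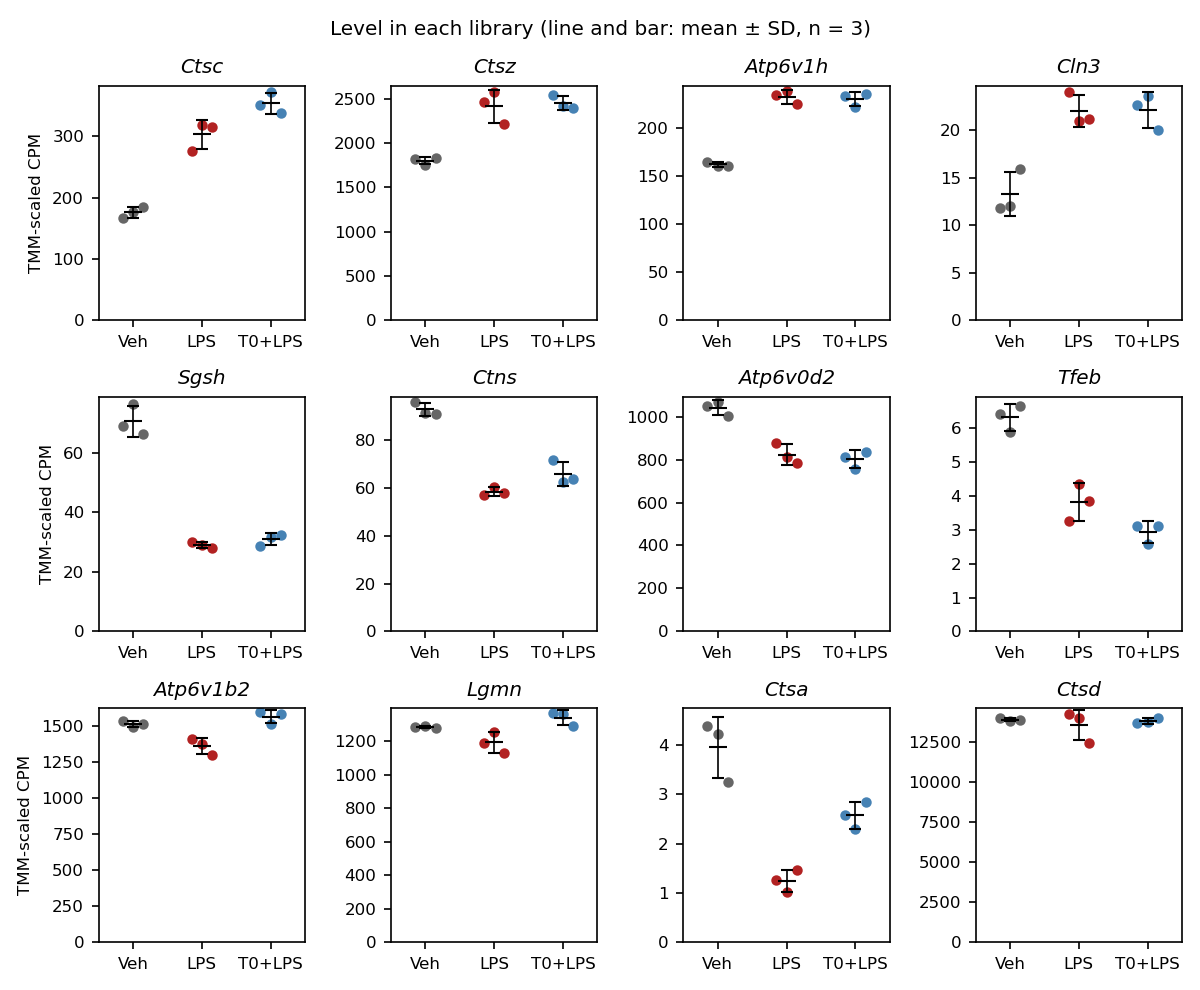
CPM in each library (points) for 12 members in Veh, LPS and T0+LPS, with a line and bar for the mean and SD of 3 libraries and every axis starting at 0. Ctsc, Ctsz, Atp6v1h and Cln3 are higher and Sgsh, Ctns, Atp6v0d2, Tfeb and Ctsa lower in LPS than in Veh, and Atp6v1b2, Ctsc, Lgmn and Ctsa are above LPS in all 3 T0+LPS libraries.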

How the data were processed

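RNA-seq libraries were grouped by their labels as Veh, LPS and T0+LPS, with 3 each. Per the labels and the study's methods, the authors enriched for poly(A) RNA, removed adaptors (cutadapt), mapped reads to the transcriptome of mm10 (HISAT2) and counted them for RefSeq genes (featureCounts). The deposited values used here are raw counts, in a table whose rows are single RefSeq transcripts. Deposited fold values and adjusted p-values of the authors' own comparison and a list of gene names were not used.

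Rows of a symbol were summed. Unshared bases were computed from the exon positions of all 32850 rows: the 6696 rows that share every base held 0 reads, 100 of them sharing only with the other strand. edgeR 4.0.16 in R 4.3.3 was fitted to the 6 libraries of each comparison with filterByExpr and TMM factors. DESeq2 1.42.0, limma-voom (limma 3.58.1), other scalings and filters, all 9 libraries, a replicate block and fits without each library were alternatives. The tests were tested on simulated data. Libraries of a group differed beyond sampling noise (chi-square per degree of freedom 2.63 to 6.67).

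The members, gene lists and promoter motifs were chosen with earlier results of these data known. Values in every library are given for the 5 largest called rises and falls with LPS, the members with the smallest p with T0, the 4 highest levels per kilobase, and Tfeb, Tfe3, Mcoln1, Atp6v0d2, Ctsk and Ctss. Naglu, Smpd1, Lamp2 and, with T0, Lgmn, Ctns, Psap and Arsb were added after their values were seen, and Tfec and Mitf were singled out of their list in the same way. An item withheld from this text is not reported here.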

Additional observations from a re-analysis of the deposited data

How the results depend on the processing

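Scaling by library totals changed the LPS comparison most. It gave 1696 genes higher and 5408 lower, 36 members lower and a member median of -0.38. Members with a positive value went from 13 to 4. It turned Arsb to -0.12, Ctsb to -0.27, Lamp1 to -0.26 and Ctsk to -0.20. It also turned Ctsl to -0.22, Ctsh to -0.27, Gm2a to -0.26, Lamp2 to -0.22 and Atp6v0d1 to -0.20. In T0+LPS against LPS it turned Ctsk and Hexa, each to -0.0027. Without a filter on low counts Ctsb, among the members with values in every library, turned to -0.0087 in LPS. That setting gave T0+LPS against LPS 225 genes higher and 285 lower, with 4 members higher (Atp6v1b2, Ctsa, Ctsc and Lgmn) and 1 lower (Arsb). One fit to all 9 libraries also called 4 members higher. Over whole rows alone, an alternative added after seeing the data, 1 member was higher.

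Leaving out 1 library at a time, the LPS values changed sign in 5 members, none of them called: Ctsd (-0.070 to 0.014), Ctsb (-0.011 to 0.042), Ctsk (-0.013 to 0.18), Ctsh (-0.024 to 0.047) and Gm2a (-0.018 to 0.058). In T0+LPS against LPS, genes higher ranged from 59 (without LPS replicate 1) to 167 and genes lower from 82 to 191. Members higher ranged from 0 to 3 and were 0 when LPS replicate 1 was left out, or replicate 1 or 3 of T0+LPS. Among the members with values in every library, those near 0 changed sign for Cln3 (-0.045 to 0.075), Atp6v1h (-0.036 to 0.014), Ctsz (-0.037 to 0.068), Ctsd (-0.029 to 0.061), Ctsb (-0.0044 to 0.047), Lamp1 (-0.022 to 0.027), Mcoln1 (-0.049 to 0.032), Atp6v0d2 (-0.072 to 0.010) and Ctsk (-0.11 to 0.093).

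Deviations of same-numbered libraries correlated between -0.05 and 0.05. This gave no sign that replicate numbers pair the libraries, but with 3 libraries per group it cannot exclude such pairing. With the replicate block 4 members were higher and 13 lower in LPS (3053 and 2927 of all genes). With T0, 3 were higher and 0 lower (155 and 230 of all genes, against 126 and 171 without the block). The causes of these changes were not tested.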

Other observations

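Beyond the 44 members, the list of 50 further lysosomal genes held calls in both directions with LPS. Of the 44 of these tested by edgeR, 11 were called higher (25.0%) and 17 lower (38.6%), beside 32.9% and 31.2% of all genes, with a median log2 fold change of -0.10. By library totals 8 were higher and 34 lower. Slc15a3, a peptide and histidine transporter of the lysosomal membrane, went from 614 ± 5.69 CPM in Veh to 1305 ± 50.7 CPM in LPS (each ± SD, n = 3), and Acp2, the lysosomal acid phosphatase, from 213 ± 4.05 to 403 ± 13.0 CPM (SD, n = 3). M6pr and Igf2r, the mannose 6-phosphate receptors that carry hydrolases to the lysosome, were called higher at 0.48 and 0.44 on the log2 scale, as was Gnptab, an enzyme that makes their ligand, at 0.56. These 5 were called higher by library totals too. Among those called lower were Hyal1, a hyaluronidase, at -1.32, Cln8 at -0.77 and Rragd, a GTPase that recruits mTORC1, at -0.59. All were chosen from the list after their values were seen.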
